A study of Mus musculus with 15 samples.

Results

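The Toll-like receptor genes Tlr2 and Tlr4, the adaptor genes Myd88 and Ticam1 and the inflammasome sensor gene Nlrp3 were examined in mouse macrophages for binding of the nuclear receptors RevErbalpha and RevErbbeta and for nascent transcription. Members were the sites that the authors had assigned to 1 of these 5 genes in their list of genomic sites bound by both RevErbs. This gave 9 of 1544 common sites and 5 of 1220 genes with such a site. Tlr2 had 3 sites, Tlr4 and Myd88 had 2 each, and Ticam1 and Nlrp3 had 1 each.

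Toll-like receptors recognise microbial molecules at the macrophage surface and in endosomes. TLR2 senses bacterial lipoproteins with TLR1 or TLR6 as a partner, and TLR4 senses lipopolysaccharide with MD-2 and CD14. MyD88 links most of these receptors to IRAK kinases and NF-kB, while TRIF, the product of Ticam1, links TLR3 and TLR4 to interferon regulatory factors and to a later wave of NF-kB activity. NLRP3 is a cytosolic sensor that assembles the caspase-activating inflammasome, and its gene is itself induced through Toll-like receptors, a step known as priming. RevErbalpha (gene Nr1d1) and RevErbbeta (gene Nr1d2) are repressors of the circadian clock that recruit the NCoR corepressor to DNA.

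Binding was measured by streptavidin ChIP-seq in RAW macrophages, a mouse macrophage line, that expressed RevErbalpha or RevErbbeta carrying a biotin tag (BLRP), beside control RAW cells labelled BirA, the biotin ligase. Capped nascent RNA was measured by 5'GRO-seq, which maps where transcription begins, in control RAW cells (BTEV-Ctrl) and in RAW cells expressing BLRP-RevErba. Nascent RNA was measured by GRO-seq in bone marrow derived macrophages (BMDM) of 2 genotypes: RevErbalpha flox/flox with RevErbbeta flox/flox (called WT, although these cells carry the floxed alleles too) and the same alleles with Tie2-Cre (called DKO). All groups are labelled C57Bl6, but for the RAW line this was taken from the label alone and the strain was not checked. Tie2-Cre is active in endothelial and blood cells, so it is not limited to macrophages. Whether a tagged RAW line was 1 clone, and the age of the mice, are not stated in the labels.

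Each group had 1 sample, so no test between groups was possible and none is given. RevErb ChIP-seq was deposited as 3 runs per protein and gene-level GRO-seq as 2 runs per genotype. Whether the runs came from separate cultures or mice is not stated, so they are shown individually, averaged and counted as 1 sample. The table's header also lists libraries treated with KLA, a synthetic lipid A that activates TLR4, libraries after serum shock and time series, and nothing in the table shows whether a run used here was among the treated ones. Totals were 598490 to 5276592 tags for RevErb runs, 10548880 for BirA, 18708148 for control and 7238710 for tagged 5'GRO-seq, and 34852907 to 46649008 for gene-level GRO-seq runs. RevErb runs 2 and 3 for alpha and run 3 for beta held 598490 to 780281 tags. Of 13 macrophage markers, 6 had values in the table, with gene-level GRO-seq of 8.19 to 12.71 in every run. Of the markers listed for neutrophils, lymphocytes, endothelium and fibroblasts, 1 had a value (Vwf, endothelial, 9.54 and 9.70 in WT and 9.72 and 9.92 in DKO), but the table covers only genes with a common site, so the absence of the others says nothing of these cells.

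The sites fell at starts and at distant elements, by the authors' classes and distances on mm9. Of the member sites, 4 lay where H3K4me3, a mark of active promoters, exceeded H3K4me1, a mark of enhancers. These were the Tlr2 site at 38 bp upstream of the gene start (chr3:83645490-83645646), the Tlr4 site at 215 bp upstream (chr4:66488552-66488708), the Ticam1 site at 247 bp upstream (chr17:56416359-56416515) and the Myd88 site at 17082 bp downstream (chr9:119231998-119232154). The class made up 4 of the 9 member sites and 19.5% of all common sites. Intergenic sites with high H3K4me1 and low H3K4me3, called intergenic enhancer-like here, lay 21556 bp upstream of Tlr2 (chr3:83667008-83667164), 5589 bp downstream of the Myd88 start (chr9:119243491-119243647) and 1159 bp upstream of Nlrp3 (chr11:59354951-59355107). Other enhancer-like sites lay 43826 bp upstream of Tlr2 (chr3:83689278-83689434) and 29395 bp downstream of the Tlr4 start (chr4:66518162-66518318).

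**Figure D1:**
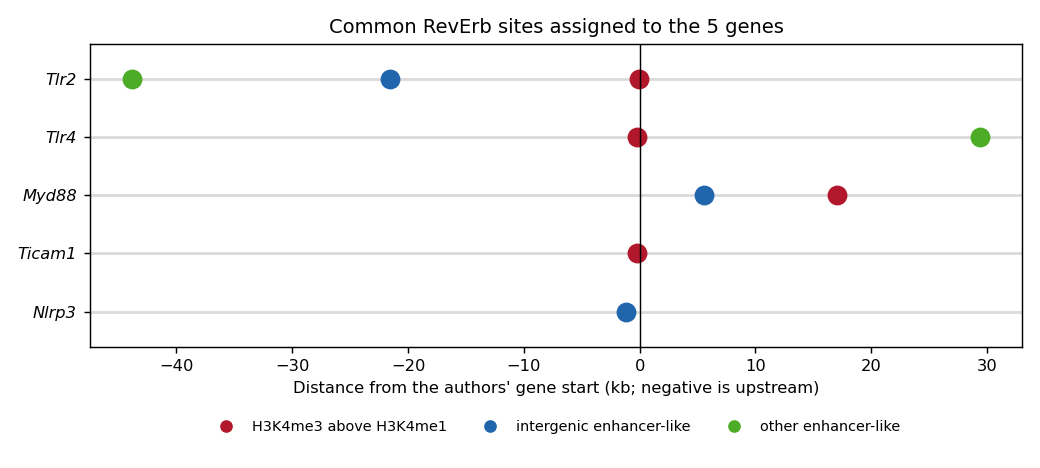
Position of the 9 common RevErb sites relative to the start of the gene to which the authors assigned them, in kilobases, with negative values upstream. Colour gives the authors' chromatin class: Tlr2, Tlr4 and Ticam1 each have a promoter-class site within 250 bp of the start, and Nlrp3 has 1 intergenic enhancer-like site.

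The Myd88 site 17082 bp downstream carried the promoter mark although it was far from the start of its assigned gene. In RefSeq (GRCm38.p6) the start of the neighbouring gene Oxsr1, an oxidative-stress kinase gene, lies 17591 bp from the Myd88 start, a distance that differs by 509 bp from that of the site. The Nlrp3 start needs similar care. RefSeq lists 2 Nlrp3 starts that are 1117 bp apart, and this spacing differs by 42 bp from the 1159 bp between the site and the start used by the authors. Which of the starts was used is not given in the sources used here, and both statements compare distances across builds.

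Start-proximal sequence was read from RefSeq promoters (GRCm38.p6), where 4 of the 5 genes had an entry. It is shown for the 3 genes whose site lay nearest a start with an entry, and each run is the 250 bases before the start, 5' to 3' on the gene's strand. Capitals mark matches to AGGTCA, a half-site of nuclear receptors in general, or to GGAAGT, a core bound by the macrophage factor PU.1, on either strand. A match is to these letters only, without flanking bases, and does not identify an element bound by RevErbs or PU.1. TGANTCA, the AP-1 motif, was also searched.
Tlr2 (chr3:83841609-83841858, minus strand): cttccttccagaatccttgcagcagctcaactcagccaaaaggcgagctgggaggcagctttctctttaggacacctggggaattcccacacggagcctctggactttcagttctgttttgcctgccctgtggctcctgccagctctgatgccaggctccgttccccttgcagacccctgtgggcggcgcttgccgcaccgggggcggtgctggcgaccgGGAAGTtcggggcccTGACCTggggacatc
Ticam1 (chr17:56276768-56277017, minus strand): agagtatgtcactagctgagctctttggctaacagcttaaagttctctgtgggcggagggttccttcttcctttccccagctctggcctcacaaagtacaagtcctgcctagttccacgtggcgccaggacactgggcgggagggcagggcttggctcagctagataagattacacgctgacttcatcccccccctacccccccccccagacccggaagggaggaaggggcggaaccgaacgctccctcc
Nlrp3, upstream start (chr11:59541319-59541568, plus strand): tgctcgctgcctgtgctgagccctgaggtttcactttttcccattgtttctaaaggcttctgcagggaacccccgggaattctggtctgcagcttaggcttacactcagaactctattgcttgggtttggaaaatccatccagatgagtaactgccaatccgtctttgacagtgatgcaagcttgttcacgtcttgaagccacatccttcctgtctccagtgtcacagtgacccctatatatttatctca

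In Tlr2, GGAAGT stood 30 to 25 bases before the start and AGGTCA, read on the opposite strand as TGACCT, stood 15 to 10 bases before it. The common Tlr2 site spanned 116 bp upstream to 40 bp downstream of the authors' start, so both matches would fall within it if that start were the RefSeq one, which could not be checked across builds. None of the 3 motifs was found in the windows of Ticam1, Myd88 or either Nlrp3 start, which says only that these letters are not in those 250 bases. For comparison, AGGTCA was in 14%, GGAAGT in 19.7% and TGANTCA in 6.75% of 32817 RefSeq windows of the same length. The common Ticam1 site spanned 325 to 169 bp upstream of its start, which would overlap the upstream part of the Ticam1 window on the same condition.

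Mean binding of each RevErb was above BirA at every member site, with Nlrp3 the most strongly bound of the 9. Every single run value was above BirA too. At the Tlr2 start, however, RevErbbeta run 3 held only 0.074 tag equivalents, beside 0.707 for BirA, so its scaled excess does not show binding. Binding values are log2 of tags in the 157 bp of the site, scaled to 10000000 tags with about 1 added, and since common sites were chosen for being bound they are a description. At the Nlrp3 site the RevErbalpha runs were 6.69, 7.86 and 7.31, the RevErbbeta runs were 8.36, 8.61 and 7.75, and BirA was 1.07. The lowest RevErb run thus stood 5.62 above BirA. Mean binding was 7.29 ± 0.59 for RevErbalpha and 8.24 ± 0.44 for RevErbbeta (SD over 3 runs of 1 sample). The mean of both proteins, 7.76, ranked 41 of 1544 common sites, and 37 when only the 3 runs with the most tags were used. The Nlrp3 site also stood alone, with the nearest other common site 1393955 bp away, whereas the other members' sites had one within 10953 to 29610 bp.

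Both receptor genes were bound at the start and at distance. At the Tlr4 site 215 bp upstream, RevErbalpha runs were 5.16, 5.26 and 6.42, RevErbbeta runs were 5.35, 5.82 and 6.02, and BirA was 0.06. The 2 proteins gave nearly the same mean there, 5.61 ± 0.70 and 5.73 ± 0.34, and the BirA value was the lowest of the 9 sites. At the downstream Tlr4 site the runs were 5.41, 7.16 and 6.87 for RevErbalpha and 5.16, 7.00 and 4.47 for RevErbbeta, with BirA at 0.99. The RevErbbeta runs there had an SD of 1.31 on the log2 scale, which exceeds the 0.94 between the means of the proteins.

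At the Tlr2 start site, RevErbalpha runs were 4.76, 4.58 and 5.78, RevErbbeta runs were 4.95, 5.86 and 0.96, and BirA was 0.74. RevErbbeta run 3 was near BirA at this site and not at the others. That run held the equivalent of 0.074 tags in the window, after undoing the scaling. It pulled the RevErbbeta mean to 3.92 ± 2.61, below the RevErbalpha mean of 5.04 ± 0.65, and without it the RevErbbeta mean was 5.41, above. The rank of the site was 1457 of 1544 with all runs and 1103 with the deep runs only. At the Tlr2 site 21556 bp upstream, RevErbalpha runs were 5.16, 5.51 and 4.71, RevErbbeta runs were 6.37, 5.83 and 5.83, and BirA was 1.94. This was the highest BirA value of the member sites, and RevErbbeta exceeded RevErbalpha in every run, with means of 6.01 ± 0.31 and 5.13 ± 0.40. At the Tlr2 site 43826 bp upstream, RevErbalpha runs were 4.18, 5.09 and 7.09, RevErbbeta runs were 5.40, 4.98 and 4.44, and BirA was 1.11. The high RevErbalpha run there was 1 of the shallow ones, and this site ranked 1048 with all runs and 1407 with the deep runs.

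Of the adaptor genes, Myd88 held the stronger site. At the intergenic Myd88 site 5589 bp downstream, RevErbalpha runs were 6.41, 5.46 and 6.15, RevErbbeta runs were 6.28, 7.03 and 6.25, and BirA was 1.84. Mean binding of both proteins was 6.26, which ranked 338 of 1544. At the Myd88 site 17082 bp downstream, RevErbalpha runs were 4.14, 4.73 and 6.07, RevErbbeta runs were 5.17, 4.60 and 4.60, and BirA was 0.84. This site ranked 1282, above 17.0% of common sites. At the Ticam1 site, RevErbalpha runs were 4.21, 5.21 and 7.04, RevErbbeta runs were 4.63, 6.77 and 5.07, and BirA was 1.40. Ticam1 had the same mean for both proteins, 5.49 ± 1.44 and 5.49 ± 1.13, with runs that spread over more than 2 on the log2 scale in each. The highest RevErbalpha run there was a shallow one. The Ticam1 site ranked 807 with all runs and 1216 with the deep runs.

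Over the 9 sites, binding ranged from 4.48 to 7.76 with a median of 5.57, against 5.54 over all common sites. BirA ranged from 0.06 to 1.94, with a median of 1.10 over all common sites. RevErbbeta had the higher mean at 4 member sites and RevErbalpha at 4, and Ticam1 was equal to within 0.01, while RevErbbeta was the higher at 66.1% of all common sites. The Tlr2 start is counted under RevErbalpha, and without RevErbbeta run 3 RevErbbeta was higher there by 0.37. At the Tlr4 start, without the same run, RevErbalpha was higher by 0.03 in place of RevErbbeta by 0.12.

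**Figure D2:**
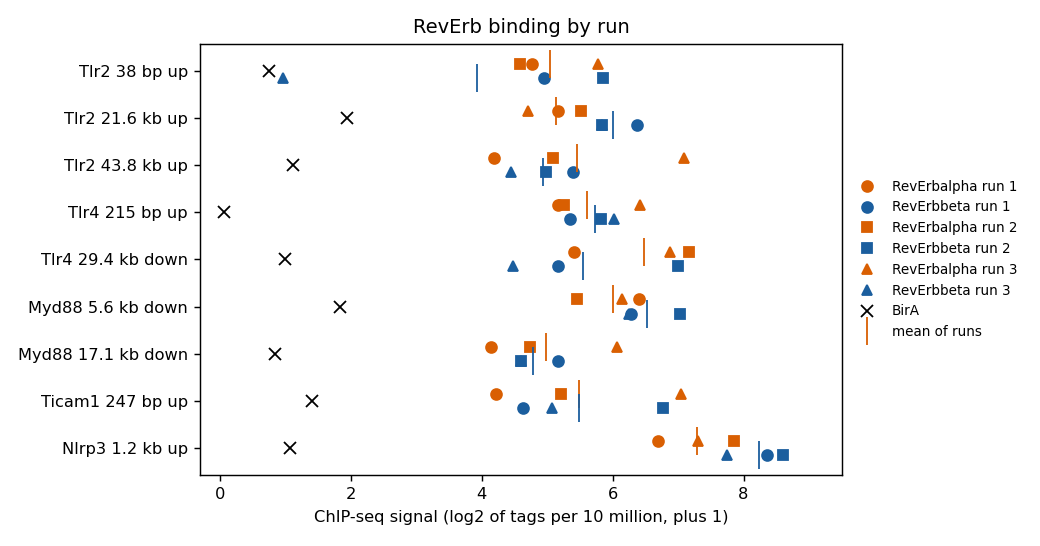
ChIP-seq signal at each member site on the log2 scale of tags per 10000000 plus 1, with each RevErbalpha and RevErbbeta run as a point, their means as vertical bars and BirA as a cross. All RevErb runs lie to the right of BirA, and the Nlrp3 runs lie between 6.69 and 8.61. RevErbbeta run 3 at the Tlr2 start lies at 0.96, from 0.074 tag equivalents, which does not show binding.

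Gain of RevErbalpha was read from 5'GRO-seq, as the value in the tagged line minus that in control RAW cells, within 500 bp around each site. Values are again log2 of tags per 10000000 with about 1 added, each from 1 library, and the error given is the counting error of the tag equivalents only, with no replicate check. The SD among cultures is unknown. A site was counted as lower or higher at a difference of 1 or more. In these bulk samples, fewer cells of a type and less RNA per cell cannot be told apart.

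Nlrp3 had the largest lower value and the distant Tlr2 site the largest higher value of the 9. At the Nlrp3 site the 5'GRO-seq signal was 7.37 in control and 6.03 in tagged RevErbalpha cells, or about 308 and 46.6 tag equivalents. The tagged value was 39.5% of control, a difference of -1.34 with a counting error of 0.23. It was the only 1 of 9 member sites past the size rule for lower, where 20.0% of all 1544 sites were. At the Tlr2 site 43826 bp upstream the signal was 4.89 in control and 6.42 in tagged cells (53.6 and 61.3 tag equivalents at unequal depth). The difference was 1.53 with a counting error of 0.27, or 2.89-fold. This was the only 1 of 9 past the rule for higher, a share found in 4.92% of all sites.

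The Tlr2 sites all had higher values in tagged cells. At the Tlr2 start the signal was 9.38 in control and 9.73 in tagged cells, a difference of 0.35 with a counting error of 0.07. The start site was among the strongest capped-RNA sites in the table, above 98.1% of common sites in control cells. At 21556 bp upstream the signal was 7.28 and 7.76, a difference of 0.48 with a counting error of 0.14. Tlr4 divided by position. Its start site had 8.67 in control and 8.95 in tagged cells, a difference of 0.28 with a counting error of 0.09. Its downstream site had 3.52 and 2.66, from 19.6 and 3.85 tag equivalents, and the difference of -0.86 was about as large as its counting error of 0.80.

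Both Myd88 sites and the Ticam1 site had lower values in tagged cells, all short of the size rule. The intergenic Myd88 site 5589 bp downstream had 7.08 in control and 6.38 in tagged cells, a difference of -0.70 with a counting error of 0.21. The promoter-class Myd88 site 17082 bp downstream had 8.91 and 8.37, a difference of -0.54 with a counting error of 0.11. Ticam1 had 5.80 and 5.41, and its difference of -0.39 was little above its counting error of 0.30. Relative to the median of all sites the Ticam1 difference was -0.16, below that error.

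In all, 5 member sites were lower and 4 were higher in tagged cells, with a median difference of -0.39. Over all common sites 62.6% were lower, with a median of -0.23, so a lower value was not particular to the members. Class and position went with the difference over the whole table. The median was -0.09 for promoter-class sites, -0.21 for intergenic enhancer-like sites and -0.33 for other enhancer-like sites, and 12.3%, 17.1% and 25.8% of them were lower by 1 or more. The median control signal of these classes fell in the same order (7.28, 6.31 and 5.58), and class was not separated from signal level. Among the 152 common sites within 1000 bp of a start, the median control signal was 8.02, 10 were lower by 1 or more and 0 were higher. The Tlr2 and Tlr4 start sites lay above that median level and Ticam1, at 5.80, lay below it.

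More strongly bound member sites tended to have lower values in tagged cells. Spearman's rho between mean binding and the 5'GRO-seq difference was -0.67 over the 9 sites (Pearson's r -0.63), and Spearman's rho was -0.24 over all 1544. These are descriptions across sites that share the same libraries, and several member sites share a gene.

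**Figure D3:**
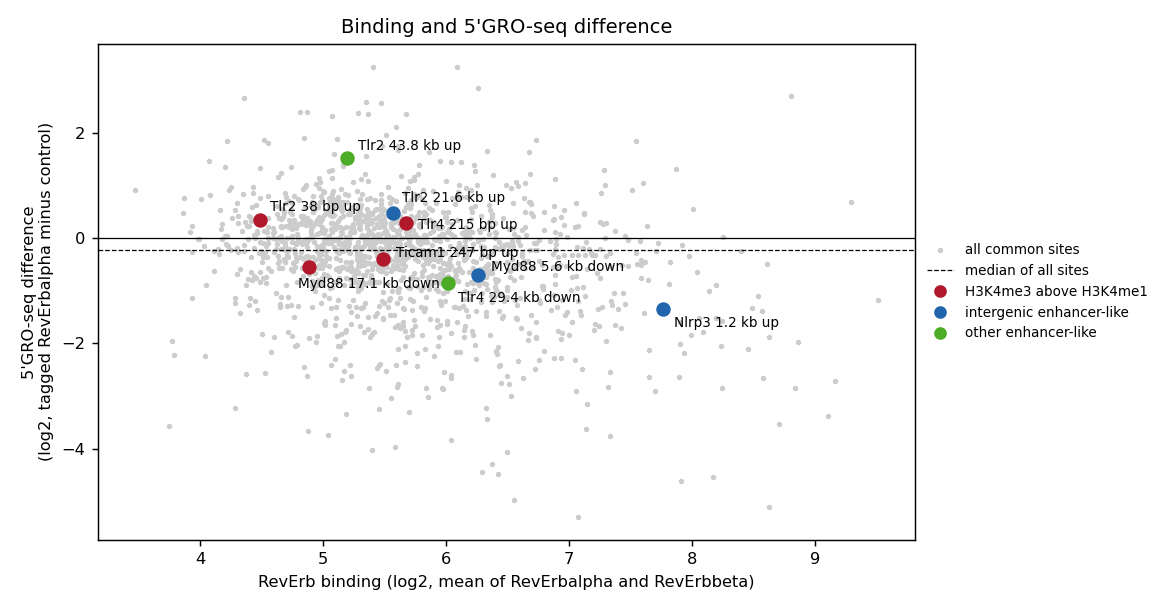
Mean RevErb binding (log2, x axis) against the 5'GRO-seq difference between tagged RevErbalpha and control RAW cells (log2, y axis) for all 1544 common sites in grey and the 9 member sites in the colour of their class. The dashed line is the median of all sites, -0.23, and the Nlrp3 site lies far right at -1.34.

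Loss of both RevErbs was read from GRO-seq at the same sites, given as 1 value per genotype, as DKO minus WT BMDM. No member site passed the size rule of 1 (0 of 9, against 5.57% of all sites in either direction). At any size, 5 were higher and 4 lower in DKO, and 52.5% of all common sites were higher. At the Nlrp3 site GRO-seq was 6.15 in WT and 6.56 in DKO, a difference of 0.41 that was above those of 81.3% of common sites. At the intergenic Myd88 site it was 4.0 and 4.59, a difference of 0.59, above 89.8% of sites. At the Ticam1 site it was 5.57 and 5.69, a difference of 0.12. These 3 sites, with Ticam1 within its counting error after centring, were the members with a lower 5'GRO-seq signal on gain of RevErbalpha and a higher GRO-seq signal on loss of both RevErbs. Of all common sites, 62.6% were lower in the first comparison and 52.5% higher in the second. The share with both was not computed, so the pattern is not shown to be particular to the members. The Tlr2 start site (2.94 and 3.22, a difference of 0.28) and the site 21556 bp upstream of it (3.62 and 3.73, a difference of 0.11) were higher in both comparisons.

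Tlr4 went the other way in BMDM at both sites. At its start GRO-seq was 6.38 in WT and 5.97 in DKO, a difference of -0.41 that was above those of 13.5% of sites. At its downstream site it was 3.03 and 2.34, a difference of -0.69, above 5.38% of sites. At the Tlr2 site 43826 bp upstream, GRO-seq was low in both genotypes (0.76 in WT and 0.61 in DKO). At the promoter-class Myd88 site it was 4.87 and 4.76. Directions of the 5'GRO-seq and GRO-seq differences were opposite at 5 of 9 member sites and the same at 4, while 49.7% of all common sites had opposite directions. Depth and run spread behind the GRO-seq values at sites are unknown.

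**Figure D4:**
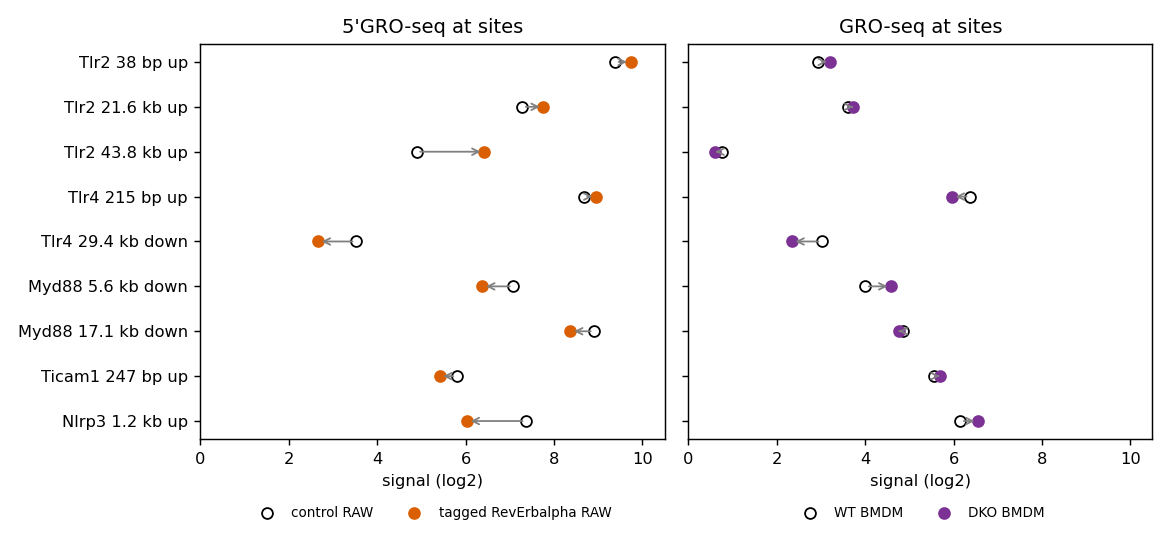
Signal at each member site on the log2 scale, on the left 5'GRO-seq in control (open) and tagged RevErbalpha RAW cells (filled), on the right GRO-seq in WT (open) and DKO (filled) BMDM, with arrows from the open to the filled point. The arrow at Nlrp3 runs from 7.37 to 6.03 on the left and from 6.15 to 6.56 on the right.

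Nascent transcription over whole genes differed little between genotypes for all 5 members. Gene values are log2 GRO-seq tags of the gene, not divided by gene length, so levels are compared between genotypes and not between genes. Nlrp3 was 10.93 and 10.92 in WT and 11.04 and 11.16 in DKO. Both DKO runs were above both WT runs, and the mean difference of 0.18 (1.13-fold) exceeded the SD of 0.06 between its own runs. Tlr2 was 7.94 and 7.86 in WT and 8.12 and 8.23 in DKO. Here too the runs did not overlap, and the difference was 0.28 (1.21-fold) with an SD of 0.07 between its own runs. Over all genes the pooled SD between runs was 0.23, which is above the Nlrp3 difference and somewhat below the Tlr2 difference.

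For the other 3 genes the runs of the genotypes overlapped. Tlr4 was 10.87 and 10.57 in WT and 10.62 and 10.61 in DKO, a difference of -0.11 with an SD between runs of 0.15. Myd88 was 8.03 and 7.88 in WT and 7.79 and 8.18 in DKO, a difference of 0.03 with an SD of 0.21. Ticam1 was 9.04 and 8.77 in WT and 8.85 and 9.06 in DKO, a difference of 0.05 with an SD of 0.17. The sign for Tlr4, Myd88 and Ticam1 changed with the run left out, Tlr4 lying between -0.26 and 0.05, Myd88 between -0.17 and 0.23 and Ticam1 between -0.09 and 0.19. For Tlr2 it stayed between 0.22 and 0.33 and for Nlrp3 between 0.12 and 0.24.

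None of the 5 genes met the gene rule of non-overlapping runs and a difference of 0.5 or more (0 of 5, against 2.70% of 1220 genes). Without the size limit, 2 of 5 were higher in each DKO run than in each WT run, against 18.4% of genes. The median difference was 0.05 over the members and 0.04 over all genes, whose middle 50% lay between -0.06 and 0.14. The differences of Tlr2 and Nlrp3 were above those of 89.6% and 79.2% of genes. Macrophage markers with a value ranged from -0.10 to 1.65 in the same comparison, with a median of 0.12, the highest being Cx3cr1, a chemokine receptor gene (8.19 and 9.16 in WT, 10.24 and 10.40 in DKO). Cd14 (9.17 and 9.05 in WT, 9.27 and 9.25 in DKO) was also higher in both DKO runs. Csf1r, Itgb2 and Fcgr1 had runs that overlapped, with differences of 0.095, 0.095 and -0.095. All markers with a value have a common RevErb site themselves. The part of a shift in cell state in the Tlr2 and Nlrp3 values was not tested.

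**Figure D5:**
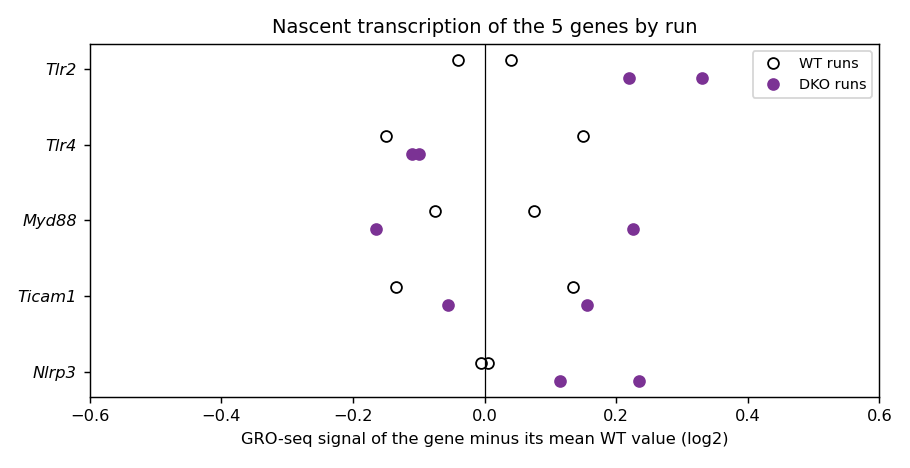
Gene-level GRO-seq of each member as the value of every WT (open) and DKO (filled) run minus the mean WT value of the gene, on the log2 scale. Both DKO points of Tlr2 and Nlrp3 lie above both WT points, by at least 0.18 and 0.11, and those of Tlr4, Myd88 and Ticam1 overlap.

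Sites with a profile most like that of each member's strongest site were found by Euclidean distance over the 7 libraries with values at sites. For Nlrp3 these were sites of Rab8b, a vesicle-traffic GTPase gene (distance 0.88, 5'GRO-seq difference -1.04, GRO-seq difference 0.25), and Fnbp1, a membrane-curvature protein gene (distance 1.41, differences -0.93 and 0.21). For Myd88 they were sites of Cd200r3 (distance 0.92, differences -0.91 and 0.43) and Mtdh (1.02, -0.52 and -0.41). For Tlr2, at 21556 bp upstream, they were sites of Glrx (0.96, 0.35 and -0.21) and Ctsk (1.0, 0.09 and 0.02), which encode glutaredoxin and the protease cathepsin K. For Tlr4, at 29395 bp downstream, the nearest were sites of Fosl2 (1.36, -1.63 and 0.10), an AP-1 subunit gene, and Ndel1 (1.36, 0.12 and -0.84). For Ticam1 they were sites of Tm6sf1 (0.70, -1.0 and 0.13) and Cd300a (0.81, 0.02 and 0.39), an inhibitory receptor gene of myeloid cells. The likeness measure used the 5'GRO-seq and GRO-seq values themselves, so a direction shared with a member follows in part from how these sites were chosen.

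The other genes of the pathway were taken from lists of receptors, adaptors, transcription factors, inflammasome parts, products and other sensors. Of 115 listed genes besides the members, 23 had a common site, with 34 sites. None of the 23 met the gene rule in GRO-seq, against 2.70% of all genes. Of them 3 were higher in each DKO run than in each WT run, against 18.4% of all genes, and 0 were lower in each. Their median difference was 0.13, against 0.04 over all genes. In 5'GRO-seq 2 of 34 sites were lower and 1 was higher by 1 or more, against 20.0% and 4.92% of all sites. The median difference of the 34 was 0.08, against -0.23 over all sites.

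Among receptors and co-receptors, 5 of 19 other genes had sites, 8 in all, and 0 were past a size rule. The site 153 bp upstream of Cd14, the co-receptor that hands lipopolysaccharide to TLR4, had 8.38 in control and 8.86 in tagged cells, a difference of 0.48 beside 0.28 at the Tlr4 start. Cd36, a scavenger receptor gene that acts with TLR2, had lower values at its sites, with differences of -0.27 and -0.87. Cd180, a relative of TLR4, had 0.74 and 0.43. Cnpy3, a chaperone gene for Toll-like receptors, had -0.83. Among adaptors and kinases, 3 of 23 other genes had a site, and each was lower in tagged cells, short of the size rule, as were 62.6% of all common sites at any size. The differences were -0.63 for Ikbke, the kinase gene downstream of TRIF, -0.59 for Tab1, a partner of TAK1, and -0.56 for Irak3, a brake on MyD88 signalling. At the gene level both DKO runs of Ikbke (11.08 and 11.10) were above both WT runs (11.07 and 10.63). The margin between 11.08 and 11.07 was much smaller than the gap between the WT runs.

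Among NF-kB, IRF genes and their brakes, 6 of 20 had sites, 10 in all. The site 22512 bp upstream of Dusp1, a phosphatase gene that restrains MAP kinases, was lower by the size rule, with 4.68 in control and 3.45 in tagged cells, while the other Dusp1 sites differed by -0.25 and 0.26. Irf5 (-0.78) and Irf8 (-0.68) were lower short of it, and Tnip1 had 0.07. The Atf3 site 18 bp from the start, near the top of the scale at 11.45 and 11.66, differed by 0.21, and the farther Atf3 sites by -0.18 and 0.23. Inflammasome genes other than Nlrp3 had sites at 3 of 21, and none was past a size rule. They were Aim2, a DNA sensor gene (3.56 and 3.85), Mefv, the pyrin gene (8.66 and 9.03), and Txnip, whose product binds NLRP3 (8.47 and 8.11), so the difference of -1.34 at Nlrp3 stood beside 0.29, 0.37 and -0.36.

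Products of Toll-like receptor signalling had sites at 3 of 20 genes. The site 198 bp upstream of Tnf had 10.06 in control and 10.15 in tagged cells, and the downstream Tnf site differed by 0.27. The site of the chemokine gene Ccl3 at 8980 bp downstream had 7.20 and 5.91, lower by the size rule, and its other site, 504 bp upstream, differed by -0.12. A site 20794 bp upstream of Il1a, the cytokine gene for interleukin-1 alpha, had 0.27 and 2.86, higher by the size rule from a level near 0. The other Il1a site, 10263 bp upstream, went the other way, with 1.35 and 0.57. Of 13 genes of other sensors, 3 had sites, and all 4 sites were higher in tagged cells, including Syk at 0.36. The site 60 bp upstream of Clec4e, the Mincle receptor gene, was the only site of these lists past the rule of 1 in BMDM GRO-seq, with 2.58 in WT and 3.61 in DKO. At the gene level the Clec4e runs overlapped (5.56 and 6.28 in WT, 5.78 and 6.56 in DKO). Nod2, the sensor gene for muramyl dipeptide, was higher in each DKO run than in WT (9.02 and 8.92 in WT, 9.30 and 9.20 in DKO).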

How the data were processed

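Of 15 samples in the labels, 7 have values in the tables used here; H3K9ac, H3K4me1 and PU.1 libraries were not analysed here. The submitters' processing notes name the build mm9, Bowtie 0.12.7 and HOMER. Values are deposited log2 signals. Per the file headers, ChIP-seq (157 bp) and 5'GRO-seq (500 bp) values at sites are log2 of tags scaled to 10000000, and gene-level GRO-seq has a scaling factor of 1. Further GRO-seq scaling, peak-calling settings and histone cut-offs are not given in the sources used here. Positions, distances, classes and assigned genes are other values the authors deposited. The column read as BirA is headed BirA-input and could stand for an input library.

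Runs were averaged on the log2 scale, and differences, ranks and shares of all 1544 sites or 1220 genes were computed with pandas 2.3.3 (Python 3.11.15). Tag equivalents came from undoing the log2 and the scaling. A random part below 1 tag appears to have been added before scaling, so no count test was run on them. Counting errors take them as Poisson counts and are approximate. At the median member site they were 18.3, 2.55 and 5.06 for RevErbalpha runs 1 to 3, 14.9, 27.9 and 2.54 for RevErbbeta, and 1.16 for BirA, so shallow runs are imprecise. Size rules were 1 at sites and 0.5 with separate runs for genes, the latter tested on simulated data. IDs were matched to RefSeq for 1208 of 1220 genes. Named genes were the members, the 2 sites nearest each member's strongest site, list genes past a size rule and up to 4 more per list. Members, lists and size rules were chosen with earlier results of these data known. Alternatives were another value added before the logarithm, centring, low-value filters, other size rules and leaving out runs.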

Additional observations from a re-analysis of the deposited data

How the results depend on the processing

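No paired analysis was possible because each group has 1 sample and the labels give no replicate numbers. Of the alternatives at members, all 63 for binding, 47 of 48 for GRO-seq and 15 of 18 for 5'GRO-seq were judged unchanged. Leaving out 1 run can hardly move a mean beyond the spread of its runs, so such alternatives say little of robustness. Changes of sign for the Tlr4, Myd88 and Ticam1 genes were judged unchanged too. Sites judged unchanged in 5'GRO-seq could move by more than their counting error. Centring removed a median of -0.23, beside counting errors of 0.14 at the Tlr2 site 21556 bp upstream and 0.21 at the intergenic Myd88 site. GRO-seq at sites has no runs and unknown depth, so its spread is unknown. Subtracting the median 5'GRO-seq difference of all sites gave 0.58 at the Tlr2 start, 0.51 at the Tlr4 start and -0.31 at the Myd88 site 17082 bp downstream, all in the same direction. Adding 10 before the logarithm shrinks differences between low values. It gave -0.29 for GRO-seq at the downstream Tlr4 site, which had 3.03 in WT and 2.34 in DKO. The Nlrp3 5'GRO-seq difference was -1.11 after centring and -1.23 with 10 added, and that of the distant Tlr2 site was 1.76 and 1.29. Counts over all sites depended on the rule: 561 lower and 223 higher at a limit of 0.5, 181 and 34 with 10 added, and 176 and 41 above the lower quartile of level, where fewer sites were counted. Centring gave 254 lower and 127 higher, against 309 and 76. For genes, 24 were higher and 9 lower, against 224 and 122 with no limit on size, 7 and 2 at a limit of 1, and 7 and 1 above the lower quartile of level. Depth limits the shallow RevErb runs and the downstream Tlr4 site in 5'GRO-seq.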
